A study of Mus musculus with 22 samples.

Results

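In mouse ES cells, 908 sites of H3K9me3 carried a peak in both scramble KD libraries and no peak in either TERRA KD library. They were chosen by the measured H3K9me3 peak calls. A site was an H3K9me3 peak of scramble KD replicate 1 that shared at least 1 bp with a peak of scramble KD replicate 2 and none with the TERRA KD lists. Of 26414 H3K9me3 peaks in scramble KD replicate 1, 16045 overlapped replicate 2 (shared sites), and the 908 lost sites were 5.66% of these. The comparison group throughout was the 11637 shared sites that overlapped both TERRA KD lists (kept sites), and a further 2308 and 1192 shared sites overlapped TERRA KD replicate 1 or replicate 2 alone. The same rule run in the other direction gave 1634 of 17691 sites (9.24%) that had a peak in both TERRA KD libraries and in neither scramble KD library. The word lost therefore describes where peaks were called, and the H3K9me3 values of the lost sites are given as a description, without a test. In chromatin pooled from many cells, a mark lost in some cells and a mark weakened in all cells cannot be told apart.

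The cells were 16.7 ES cells, a hybrid line of CAST/Ei and 129/Sv/Jae background, so all libraries came from 1 line with no second genotype. LNA gapmers, short antisense oligonucleotides with locked bases, either against TERRA (TERRA KD) or with a scramble sequence (scramble KD), were delivered by nucleofection, and chromatin was collected 12 h later from cells freed of feeders. ATRX, H3K9me3 and G4 ChIP-seq and ATAC-seq each had 2 replicates per condition. The study describes the ATRX and G4 replicates as biological. The labels do not say whether replicates were separate cultures, so p-values measure only the spread between these samples. After duplicate removal the libraries held 5435286 to 13898785 tags for H3K9me3, 4104486 to 15506154 for ATRX, 2961038 to 24588605 for G4 and 5976014 to 7883648 for ATAC-seq. H3K9me3 replicate 1 was called in both conditions with few input tags, and gave 26414 and 25490 long peaks, whereas replicate 2 gave 76213 and 74925 short ones. In ATAC-seq, 9 or 10 of 10 ES cell genes had a peak within 1 kb of the start site in each library. Nanog lacked one in scramble KD replicate 1, and Esrrb in replicate 2 of both conditions. Of 10 fibroblast genes that would mark feeders, 4 or 5 had such a peak in each library. Col1a1, Col1a2, Thy1 and Twist2 had one in every list, whereas Col3a1, Lum, Postn and Pdgfra had none in any list.

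H3K9me3 is a histone mark of silent chromatin that covers retrotransposons, pericentromeric satellites, zinc finger gene clusters and imprinted loci in ES cells. ATRX is a chromatin remodeler that deposits histone H3.3 at telomeres and repeats and helps to maintain H3K9me3 there. TERRA is the RNA transcribed from telomeric repeats, which also binds sites inside chromosomes and can form G-quadruplexes (G4), 4-stranded structures of guanine-rich nucleic acid. ATAC-seq marks accessible chromatin by where a transposase can cut.

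The bases under the strongest H3K9me3 signal differed widely among the lost sites. The following 6 stretches of 200 bases, centred on the scramble KD replicate 1 summit and read on the plus strand of GRCm38, show the span from a stretch made wholly of masked repeat to a stretch with none. Capitals mark bases outside the masked repeats of the reference, and lower case marks masked repeat. The first was the best ranked lost site, an intergenic site at chr6:25622694-25622893. The second lay in an intron of the cell polarity gene Pard3 (chr8:127563219-127563418) and the third in an intron of Reln (chr5:22070939-22071138). The last came from lost sites within 1 kb of the starts of Clcn4 (chr7:7299606-7299805), Tcfl5 (chr2:180643039-180643238) and Nos1 (chr5:117867067-117867266), although the Clcn4 stretch itself lies over 1 kb from the start.
Intergenic site: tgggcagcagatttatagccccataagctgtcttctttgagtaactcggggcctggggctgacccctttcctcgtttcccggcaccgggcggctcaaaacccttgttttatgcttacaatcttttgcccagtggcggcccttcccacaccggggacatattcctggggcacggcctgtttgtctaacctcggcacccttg
Pard3: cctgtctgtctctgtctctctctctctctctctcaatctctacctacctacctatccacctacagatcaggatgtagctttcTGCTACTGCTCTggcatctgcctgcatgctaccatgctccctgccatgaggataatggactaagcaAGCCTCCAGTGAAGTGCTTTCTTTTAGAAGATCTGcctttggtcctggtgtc
Reln: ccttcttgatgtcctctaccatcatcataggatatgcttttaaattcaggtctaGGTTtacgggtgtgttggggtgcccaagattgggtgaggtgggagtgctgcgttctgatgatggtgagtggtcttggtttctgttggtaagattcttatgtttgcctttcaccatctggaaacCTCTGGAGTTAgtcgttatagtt
Clcn4: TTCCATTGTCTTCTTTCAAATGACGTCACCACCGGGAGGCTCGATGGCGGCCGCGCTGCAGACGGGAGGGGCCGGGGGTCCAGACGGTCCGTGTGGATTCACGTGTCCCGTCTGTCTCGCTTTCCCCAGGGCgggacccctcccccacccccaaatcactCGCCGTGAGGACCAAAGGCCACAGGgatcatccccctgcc
Tcfl5: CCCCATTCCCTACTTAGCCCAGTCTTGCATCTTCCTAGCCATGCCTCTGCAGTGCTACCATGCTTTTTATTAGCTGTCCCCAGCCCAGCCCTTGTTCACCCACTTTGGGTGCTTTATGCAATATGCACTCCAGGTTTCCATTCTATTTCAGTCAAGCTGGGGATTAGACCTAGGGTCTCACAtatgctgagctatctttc
Nos1: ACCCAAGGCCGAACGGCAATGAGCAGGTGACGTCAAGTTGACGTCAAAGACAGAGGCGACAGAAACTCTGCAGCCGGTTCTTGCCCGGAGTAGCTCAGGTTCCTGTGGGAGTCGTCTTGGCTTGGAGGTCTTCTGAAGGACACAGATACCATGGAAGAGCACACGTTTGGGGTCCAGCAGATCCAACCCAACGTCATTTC
Of these 200 bases, 200 were masked in the intergenic site, 185 in Reln, 153 in Pard3, 43 in Clcn4, 18 in Tcfl5 and 0 in Nos1. The Clcn4 stretch was 65.5% G or C with 16 CpG dinucleotides, against 49.0% and 0 at Tcfl5 and 55.0% and 10 at Nos1.

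Lost sites were short peaks with low scores. Their length ranged from 418 to 7042 bp with a median of 1728 bp (interquartile range 1324 to 2171), against a median of 3845 bp for kept sites. Their peak score in scramble KD replicate 1, as −log10 p, had a median of 2.72 and ranged from 2.0 to 13.0, against 7.74 for kept sites, where 2.0 was the lowest score a list could hold. In scramble KD replicate 2 the best overlapping peak of a lost site had a median −log10 p of 2.71, against 3.9 at kept sites. The median lost site held 35 tags in replicate 1 and 6 tags in its best replicate 2 peak, whereas the median kept site held 116 and 9. Tag counts were not scaled to length. The fold enrichment over input differed less, with medians of 23.9 at lost and 30.4 at kept sites in replicate 1. In replicate 2 these medians were 7.19 and 7.49. Replicate 2 peaks covered a median of 29.0% of a lost site and 31.5% of a kept site, and most of the length of both kinds was thus not called again in the second library.

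**Figure D1:**
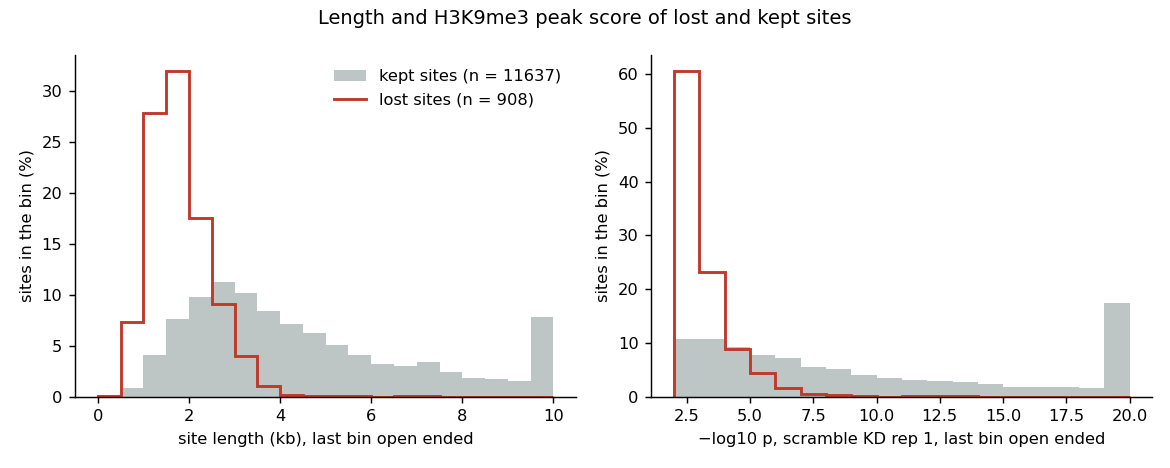
Share of 908 lost (red line) and 11637 kept sites (grey) in bins of site length in kb (left) and of −log10 p in scramble KD replicate 1 (right), the last bin of each holding all higher values. Lost sites pile up near their medians of 1728 bp and 2.72, while kept sites spread to the right.

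The share of shared sites that was lost was lower in each higher bin of both scales. It was 18% (550 of 3063) at a −log10 p from 2 to 3, 7.36% from 3 to 5, 1.5% from 5 to 10 and 0.0629% (3 of 4766) from 10 upwards. By length, it was 22.6% below 1000 bp, 16.8% from 1000 to 2000 bp, 6.05% from 2000 to 3000 bp, 1.13% from 3000 to 5000 bp and 0.0967% (4 of 4136) for longer sites. Only 2 lost sites (0.22%) reached a −log10 p of 5 in both scramble KD lists, whereas 3279 kept sites (28.2%) did. The plot of length and score shows this as a narrow peak of lost sites at the low end of the range of kept sites. The H3K9me3 peak score of most lost sites was thus close to the threshold of the peak caller.

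The distance from a lost site to the nearest peak of either TERRA KD list varied widely, with a median of 8672 bp. For 16 sites the nearest peak was within 100 bp, for 157 (17.3%) within 1 kb and for 483 (53.2%) within 10 kb, whereas 29 sites (3.19%) had none within 100 kb. The TERRA KD lists held 25490 and 74925 H3K9me3 peaks, and no distance was computed for other positions of the genome. Whether lost sites lay nearer to a TERRA KD peak than such positions was therefore not tested. At the edge of the rule, lost sites on chromosomes 7, 8 and 16 missed a TERRA KD peak by 4, 6 and 24 bp, and sites on chromosomes 10, 1 and X stayed outside the set because they shared 7, 8 and 11 bp with one. The farthest was the site over the Tcfl5 start, at 305699 bp from the nearest TERRA KD peak.

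**Figure D2:**
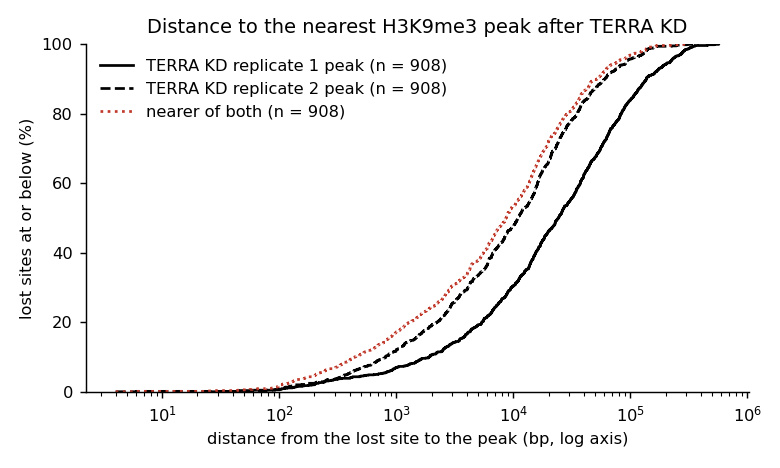
Cumulative share of the 908 lost sites (y, %) by distance in bp (x, log axis) to the nearest H3K9me3 peak of TERRA KD replicate 1 (solid), replicate 2 (dashed) and the nearer of both (red dotted). The red curve passes 17.3% at 1000 bp and 53.2% at 10 kb.

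Lost sites were less often close to a kept site than kept sites were to each other. A kept site was found within 10 kb of 15.7% of lost and 32.2% of kept sites, and within 50 kb of 45.6% and 58.3%. Clustering among the lost sites was weak, as 12.1% had another lost site within 100 kb and 11.1% of kept sites had a lost site that close. Together the lost sites covered 1657 kb. Every chromosome from 1 to 19 and X gave between 3.84% (47 of 1224 on X) and 7.54% (78 of 1034 on chromosome 8) of its shared sites, and Y gave 1 of 75, in a line described as female.

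Chromosome ends were poor in lost sites. Of the 906 lost sites on assembled chromosomes, 5 (0.552%) lay in the last 1 Mb at the distal end, against 1.61% of kept sites, and 21 (2.32%) in the first 5 Mb at the centromeric end, against 4.21%. The telomere repeat unit TTAGGG stood in at least 2 copies in a row, on either strand, in 2 lost sites (0.221%) and 37 kept sites (0.319%), and in at least 4 copies in none of the lost and 16 of the kept (0.138%). A count of 0 of 906 allows a share of up to 0.331%, by 3 counts and for counting error only, so no difference in telomere repeats was detectable.

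Most lost sites were intergenic. By curated RefSeq transcripts, the centre of 672 lost sites (74.2%) was intergenic, against 81.0% of kept sites, and that of 216 (23.8%) was in an intron, against 18%. Coding exons held 9 centres, UTRs 6 and exons of non-coding transcripts 3. A gene body overlapped 242 lost sites (26.7%), compared with 20.8% of kept and 21.8% of all shared sites, and the share at lost sites was still higher in the central 1 kb (25.9% against 19.3%) and in the lowest of 3 equal groups by length (26.1% against 18.3%). A transcription start site lay within 1 kb of 17 lost sites (1.88%), against 2.22% of kept sites. In the central 1 kb, where length is equal, the order was the opposite, at 1.32% against 0.552%.

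Repeats covered less of the lost sites. Masked repeat made up 56.3% of a lost site on average (SD 30.7, n = 906), against 69.1% of a kept site (SD 25.4, n = 11587), and 477 lost sites (52.6%) were over 50% masked, against 75.2% of kept sites. In the central 1 kb the means were 59.0% and 76.0%, and the medians 57.1% and 93.5%. Among sites with a −log10 p under 3, where the weakest peaks of both kinds are compared, the means were 56.3% and 70.8%. That comparison was added after the data were seen. GC content was alike, at 43.9% (SD 4.29) and 43.5% (SD 3.32), while the ratio of observed to expected CpG was 0.209 at lost and 0.279 at kept sites, and 0.212 and 0.275 in the central 1 kb. Lost sites therefore combined less repeat with fewer CpG dinucleotides.

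**Figure D3:**
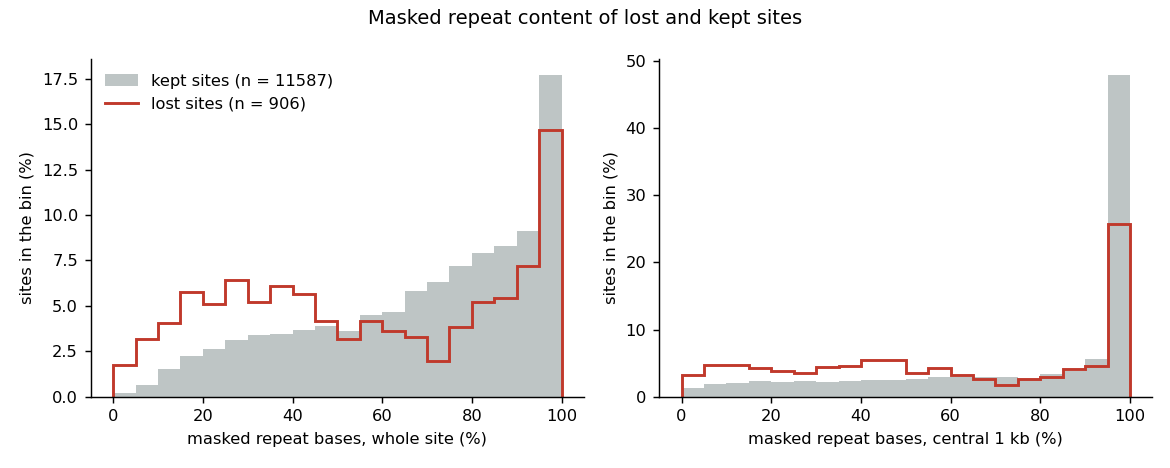
Share of 906 lost (red line) and 11587 kept sites (grey) in bins of masked repeat content in %, over the whole site (left) and over its central 1 kb (right). Lost sites spread over the low and middle range, where 52.6% exceed 50% masked, against 75.2% of kept sites.

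A sequence able to fold into a G4 was searched as 4 runs of GGG or more G, parted by 1 to 7 bases of any kind, on both strands. It was present in 167 lost sites (18.4%) and 3729 kept sites (32.2%), but in the central 1 kb, which removes the difference in length, in 10.8% of lost, 6.89% of kept and 7.74% of all shared sites. The 4 examples below lie on lost sites named here and are given with 15 bases to each side, the motif in capitals and the strand that carries the guanines. They show the range from dense runs in an intron of 4933430H16Rik (chr7:82955771-82955794, plus strand), a site with G4 peaks in all 4 lists, to lost sites that reach within 1 kb of the starts of Tcfl5 (chr2:180642836-180642871, minus strand), Zfp978 (chr4:147121530-147121555, plus strand) and Ttyh3 (chr5:140648666-140648689, minus strand). The Zfp978 motif lies inside the 5571 bp site, farther than 1 kb from the start itself.
4933430H16Rik: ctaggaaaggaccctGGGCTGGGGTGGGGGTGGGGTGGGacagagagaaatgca
Tcfl5: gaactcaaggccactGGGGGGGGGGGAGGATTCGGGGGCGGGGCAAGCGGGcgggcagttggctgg
Zfp978: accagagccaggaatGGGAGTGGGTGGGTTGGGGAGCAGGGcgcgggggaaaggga
Ttyh3: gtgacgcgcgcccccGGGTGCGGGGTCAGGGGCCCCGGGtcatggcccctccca
Lost sites with the motif had a G4 peak in 24.0% and 56.3% of cases in scramble KD replicates 1 and 2 and in 37.7% and 40.7% in TERRA KD replicates 1 and 2. Lost sites without it had a G4 peak in 21.4%, 51.3%, 26.7% and 33.7%. The share was higher with the motif in each of the 4 lists, with differences of 2.57, 5.0, 11.1 and 7.02 percentage points in the same order. Length was not held equal between sites with and without the motif, and the peak did not have to lie on the motif. The part of length in these differences was not tested. Most lost sites with a G4 peak had no motif, as in scramble KD replicate 1, where 158 of them had none and 40 had it.

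ATRX peaks were scarce on lost sites. In scramble KD, 23 (2.53%) and 24 (2.64%) of the 908 sites had an ATRX peak, and in TERRA KD 86 (9.47%) and 47 (5.18%) did. Both TERRA KD values were above both scramble KD values. The mean was 2.59% ± 0.0779 (SD, n = 2) in scramble KD and 7.32% ± 3.04 in TERRA KD, a difference of 4.74 percentage points (exact permutation test over the 4 libraries, two-sided p = 0.33, the smallest that 2 against 2 allows). Kept sites had an ATRX peak in 9.62% and 11.3% of cases (scramble KD), or 47.2% and 18.5% (TERRA KD), and the TERRA KD minus scramble KD difference at lost sites less that at kept sites was −17.7 percentage points, again with p = 0.33 in the exact permutation test. It was −30.7 points in replicate 1 and −4.68 in replicate 2, so without replicate 1 it was much smaller. In the lowest of 3 equal groups by length it was −5.03 points (−10.5 and 0.477 in replicates 1 and 2, exact permutation p = 1.0), and at sites with a −log10 p under 3, added after the data were seen, −6.33 points (−13.8 and 1.12, exact permutation p = 0.667), so that replicate 2 turned in sign in both. The ATRX and H3K9me3 lists of a condition and replicate were called against the same input, so the ATRX calls are not fully independent of the H3K9me3 calls that chose the sites, and the part of the input in the result was not tested.

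Over the 4 libraries, the ATRX share was lower at lost than at kept sites in each, by a mean of −16.7 percentage points (exact sign-flip test over 4 libraries, two-sided p = 0.13, the smallest it can give; 0.375 after Benjamini-Hochberg adjustment over the 9 tests on ATRX, G4 and ATAC). The difference kept its direction in the central 1 kb, where lost sites had 2.2%, 1.98%, 6.94% and 4.07% in scramble KD 1 and 2 and TERRA KD 1 and 2, and kept sites 4.42%, 4.49%, 27.3% and 8.42%. It also kept it among sites with a −log10 p under 3, at −5.02 points, a comparison added after the data were seen. No ATRX peak in any list was found at 745 lost sites (82.0%), where 53.6% of all shared sites had none, and no lost site had an ATRX peak in all 4 lists, against 179 kept sites (1.54%). These are shares of whole sites, of which the lost were shorter, and were not computed at equal length. ATRX in TERRA KD replicate 1 alone accounted for 74 of the 163 lost sites with any ATRX peak. That library gave 41384 ATRX peaks from 4104486 tags, the largest list from the smallest number of tags, whereas the other 3 gave 7321 to 21718, and the part of this difference in the result was not tested.

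ATRX peaks in both TERRA KD lists and in neither scramble KD list marked 0.661% of lost, 6.21% of all shared and 8.16% of kept sites. These are again shares of whole sites, of which the lost were shorter, and were not computed at equal length. The lost sites of this kind numbered 6. They lay near BC035044 on chromosome 6, in introns of Mgll, which encodes monoacylglycerol lipase, and of Dera, a deoxyribose phosphate aldolase gene, and in intergenic sequence on chromosomes 12 and 18. At the Mgll site (chr6:88771099-88774787) the ATRX peaks held 4 and 14 tags at 8.57-fold and 4.26-fold over background, and at the Dera site (chr6:137811284-137812389) 7 and 12 tags at 12.7-fold and 5.68-fold. Taking the best ATRX peak of each TERRA KD list at each of the 6 sites, the highest −log10 p was 7.29, on chromosome 18, and all others were at 4.29 or lower. With ATRX peaks of a −log10 p of at least 5 alone, the difference between the conditions at lost sites was 0.33 points.

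**Figure D4:**
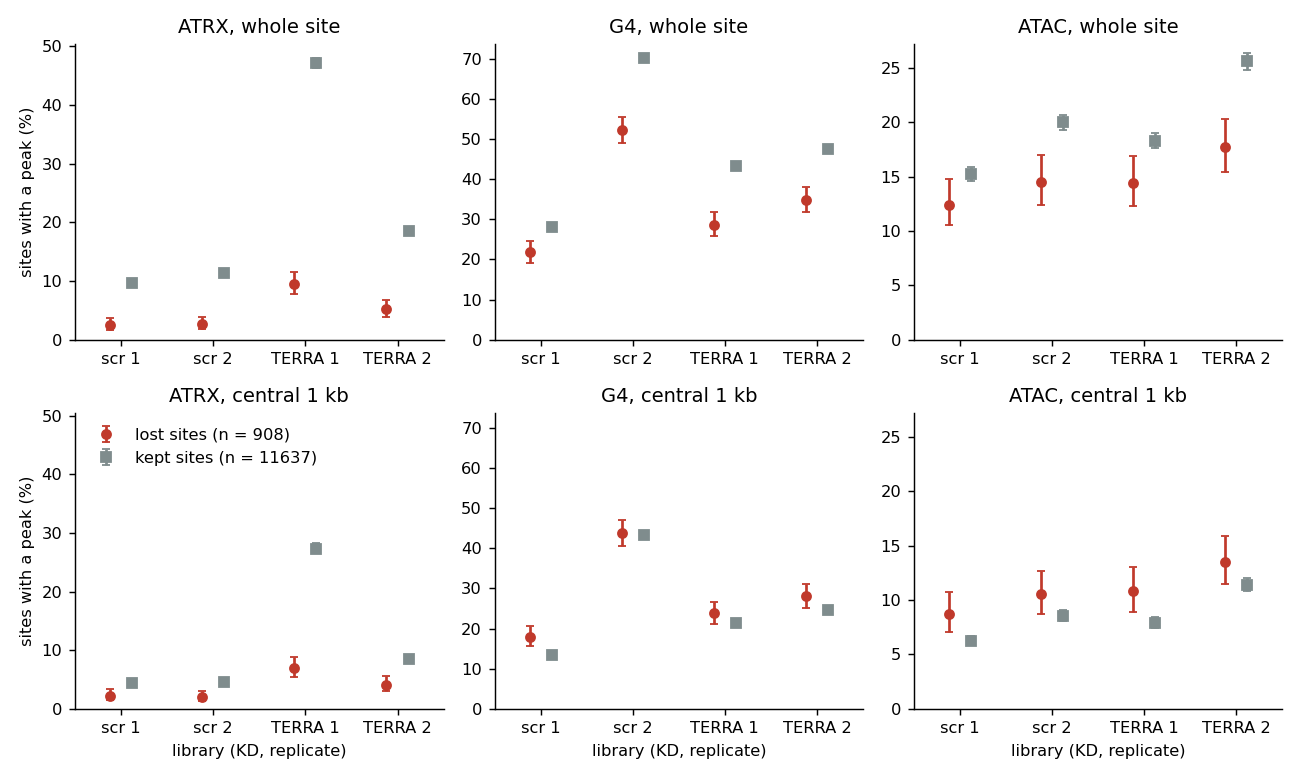
Share of sites with a peak (y, %) in each library (x, scramble or TERRA KD and replicate) for ATRX, G4 and ATAC, over the whole site (top) and its central 1 kb (bottom). Red circles are the 908 lost and grey squares the 11637 kept sites, with 95% Wilson intervals that cover counting error only. Lost sites lie below kept sites in every top panel, and only for ATRX in the bottom panels.

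G4 peaks were the most frequent of the 3 on lost sites and varied most between replicates. In scramble KD, 198 (21.8%) and 475 (52.3%) lost sites had a G4 peak, and in TERRA KD 260 (28.6%) and 317 (34.9%) did. The scramble KD libraries enclosed the TERRA KD libraries, and the difference of −5.29 percentage points (exact permutation test over 4 libraries, two-sided p = 1.0) was 6.83 in replicate 1 and −17.4 in replicate 2. Scramble KD replicate 2 was the deepest G4 library, with 24588605 tags and 389434 peaks, and scramble KD replicate 1 the shallowest, with 2961038 tags and 140119 peaks, so the order of the shares was that of depth, whose part in the result was not tested. Relative to kept sites, the difference between the conditions was −1.4 points (p = 1.0 in the same exact test).

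Per site, G4 peaks were less frequent on lost than on kept sites in each of the 4 libraries, where kept sites had 28.1%, 70.2%, 43.2% and 47.4%, by a mean of −12.8 points (exact sign-flip test, p = 0.13; adjusted 0.375). The order was the opposite in the central 1 kb, where lost sites had a G4 peak in 18%, 43.8%, 23.8% and 28.0% of cases and kept sites in 13.4%, 43.3%, 21.5% and 24.7%, a mean difference of 2.66 points (exact sign-flip test, p = 0.13). Scaled to Mb of site, the G4 peaks on lost sites numbered 131 and 325 (scramble KD) and 164 and 205 (TERRA KD), against 79.5 and 249, and 121 and 132, on kept sites. A peak counted in full if it shared 1 bp with a site, so this scale favours shorter sites such as the lost ones. The part of that in the difference was not tested. A G4 peak in all 4 lists was present on 102 lost sites (11.2%), where the share over shared sites was 15.7%. A G4 peak in both scramble KD lists alone was found on 10 (1.1%, against 1.72%), and in both TERRA KD lists alone on 4 (0.441%, against 0.368%). On the 102 sites with 4 peaks, the fold enrichment over input of the best peak was lower in both TERRA KD than in both scramble KD libraries at 24 (23.5%) and higher at 3 (2.94%), beside 24.9% and 1.43% of the 2515 shared sites of this kind. The median of log2 (TERRA KD over scramble KD) was −0.48 at lost sites and −0.47 at shared sites. The shares at lost sites were close to those over all shared sites, and their difference was not tested. Both G4 lists of a condition had the same input tag count, 23359214 in scramble KD and 19824848 in TERRA KD. The G4 calls and folds of a condition are thus not fully independent. In every G4 comparison between the conditions, input and knockdown cannot be told apart.

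Among lost sites, G4 peaks were more frequent where repeats were dense. At the 477 sites over 50% masked, 28.7% and 59.1% had a scramble KD G4 peak and 34.8% and 40.9% a TERRA KD one, and at the 429 others 14.2% and 44.5%, and 21.9% and 28.4%. ATRX did not follow this order in every list, with 1.47%, 3.56%, 6.5% and 4.82% at the repeat-dense sites and 3.5%, 1.63%, 12.8% and 5.59% at the others. ATAC peaks were found on 12.6%, 15.1%, 15.1% and 19.1% of the repeat-dense sites and on 12.4%, 14.0%, 13.8% and 16.3% of the others. These are shares of the same 906 sites in libraries of different depth and are given as a description.

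Most lost sites had no ATAC peak in either condition. In scramble KD, 113 (12.4%) and 132 (14.5%) lost sites had an ATAC peak, and in TERRA KD 131 (14.4%) and 161 (17.7%) did. The ranges of the conditions overlapped, and the difference of 2.59 percentage points gave p = 0.667 in the exact permutation test over 4 libraries. Kept sites had 15.2% and 20% (scramble KD), or 18.3% and 25.6% (TERRA KD), and the difference between the conditions at lost sites less that at kept sites was −1.76 points (p = 0.667 in the same exact test). In both kinds of site the shares followed the number of ATAC peaks in a library, which ran from 78571 in scramble KD replicate 1 to 103911 in TERRA KD replicate 2.

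As for G4, the comparison with kept sites turned in sign in the central 1 kb. Over whole sites ATAC peaks were less frequent at lost sites in each library, by a mean of −4.98 points (exact sign-flip test, p = 0.13; adjusted 0.375), and in the central 1 kb they were more frequent in each, with 8.7%, 10.6%, 10.8% and 13.5% at lost and 6.28%, 8.56%, 7.9% and 11.4% at kept sites (mean difference 2.37 points, exact sign-flip p = 0.13). Scaled to Mb of site, the ATAC peaks on lost sites numbered 70.6 and 82.7 (scramble KD) and 84.5 and 104 (TERRA KD), against 36.3, 48.8, 44.0 and 63.3 on kept sites. As for G4, this scale favours shorter sites, because a peak that only reached the edge of a site counted in full. No ATAC peak in any list was found on 702 lost sites (77.3%), where the share over shared sites was 71.2%. All 4 lists had a peak on 86 (9.47%, against 11.8%), both TERRA KD lists alone on 12 (1.32%, against 1.21%) and both scramble KD lists alone on 5 (0.551%, against 0.324%). Of the 86 sites open in all 4 lists, the fold enrichment was higher in both TERRA KD than in both scramble KD libraries at 19 (22.1%) and lower at 17 (19.8%), beside 18.8% and 12.1% of the 1888 shared sites of this kind, and the median log2 ratio was 0.04. Both shares were above those over shared sites, in opposite directions of accessibility, and the difference was not tested.

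Of the 908 lost sites, 163 had an ATRX peak, 546 a G4 peak and 206 an ATAC peak in at least 1 list. All 3 assays had a peak in at least 1 list on 36 sites (3.96%), and 249 sites (27.4%) had no peak of any of them in any list. A G4 peak in scramble KD replicate 2 alone was found on 114 lost sites (12.6%). No G4 peak in any list was found on 39.9% of lost, 23.9% of kept and 27.4% of all shared sites. For ATRX these shares were 82.0%, 44.7% and 53.6%, and for ATAC 77.3%, 69.7% and 71.2%. Lost sites were shorter, and these shares were not computed at equal length. The counts of 36, 249 and 114 sites were not made for kept or shared sites. Whether the assays met more or less often than their separate shares would give was not tested.

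The 10 best ranked lost sites, by the worse of their ranks in both scramble KD lists, lay outside promoters. The first, at chr6:25618895-25625454, was 6560 bp long and 95.2% masked, held 157 tags at a −log10 p of 12.0 in replicate 1 and 10 tags at 4.42 in replicate 2, and had no ATRX, G4 or ATAC peak in any list. Its nearest TERRA KD peak was only 260 bp away. The site of rank 2, at chr16:20813838-20818535 and 79327 bp from the start of the thrombopoietin gene Thpo, had a −log10 p of 9.91 and 4.66 and no TERRA KD peak within 15166 bp. Rank 3 was the intronic site of 4933430H16Rik at chr7:82954889-82957709 (8.1 and 4.04), whose motif is printed above, with scramble KD G4 peaks at 14.5-fold and 6.15-fold and TERRA KD G4 peaks at 9.81-fold and 6.45-fold. Rank 4 was the Pard3 site at chr8:127562110-127564786 (7.35 and 3.33), which was open in all 4 ATAC lists, at 5.42-fold in both scramble KD and 7.19-fold and 7.57-fold in TERRA KD. Rank 5 was the Reln site at chr5:22069146-22072015 (6.86 and 4.71), in the gene of the extracellular matrix protein reelin, with no TERRA KD peak within 44027 bp. It was 90.5% masked and had G4 peaks in all 4 lists, at 32.5-fold and 8.81-fold (scramble KD) and 19.2-fold and 6.83-fold (TERRA KD).

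The other 5 of these sites lay near Mctp2 on chromosome 7, on chromosome 6 at 314826 bp from the nearest curated start, in an intron of 4930467J12Rik on chromosome 13, near Zfp318 on chromosome 17 and near Slc2a12 on chromosome 10. Their −log10 p lay between 6.28 and 8.1 (replicate 1) and between 3.13 and 3.38 (replicate 2). The Mctp2 site had G4 peaks in all 4 lists, and those on chromosome 6 and in 4930467J12Rik had ATAC peaks in all 4. An ATRX peak was present on 4 of the 10 best ranked sites, each in a single list, 3 of them in TERRA KD replicate 1.

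**Figure D5:**
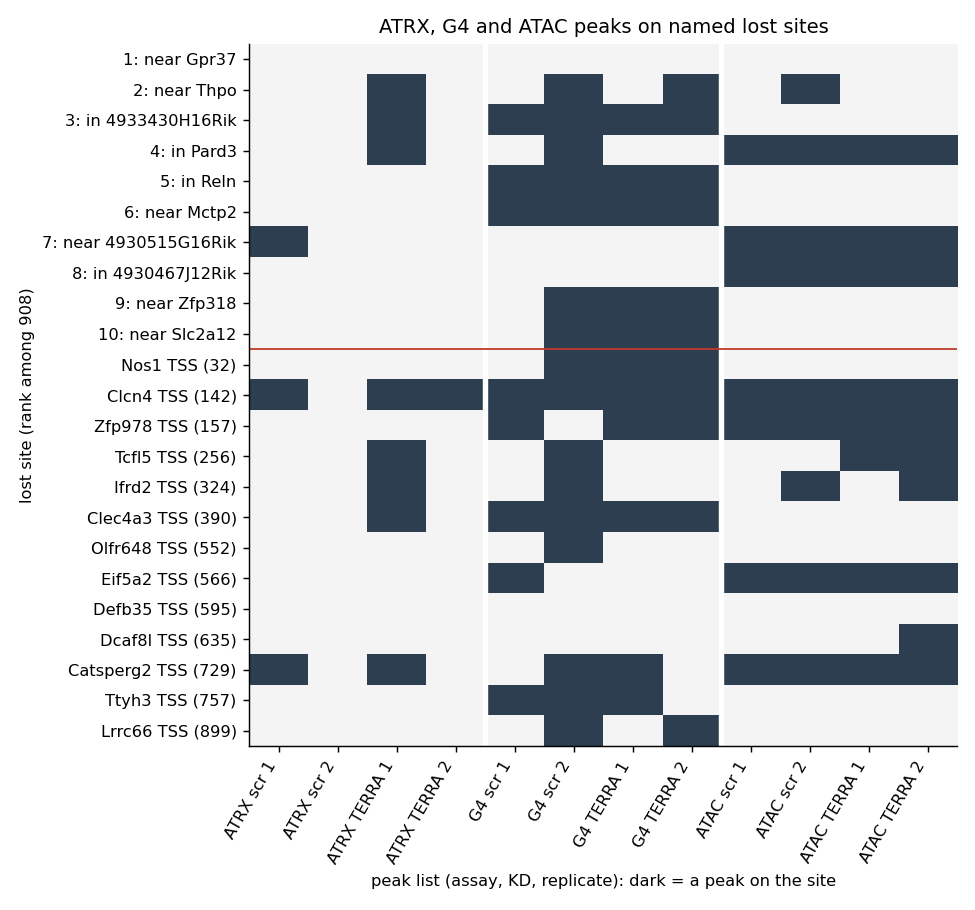
Presence (dark) or absence (light) of a peak in each of the 12 ATRX, G4 and ATAC lists (x) on the 10 best ranked lost sites (above the red line) and on the lost sites within 1 kb of the start of a protein-coding gene (below it, rank among the 908 in brackets). ATAC rows are mostly full or empty, while ATRX calls are scattered and concentrated in TERRA KD replicate 1.

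The 17 lost sites at start sites belonged to 13 protein-coding genes and 6 non-coding genes or pseudogenes. The strongest in replicate 1 was at Clcn4, the gene of an endosomal chloride and proton exchanger, also 208 bp from the miRNA gene Mir5620, at chr7:7299099-7300767 with a −log10 p of 11 (85 tags) and 2.62 (10 tags). It carried peaks in 11 of the 12 ATRX, G4 and ATAC lists, the most of any lost site. ATRX was called there in scramble KD replicate 1 (27 tags, 79.6-fold) and in TERRA KD replicates 1 (72 tags, 52.4-fold) and 2 (34 tags, 17.8-fold), but not in scramble KD replicate 2. G4 was called at 45.1-fold and 18.6-fold (scramble KD) and at 14.8-fold and 5.84-fold (TERRA KD). Both TERRA KD values were lower, with the input differing between the conditions. ATAC peaks stood at 4.55-fold and 5.68-fold (scramble KD) and at 5.23-fold and 8.21-fold (TERRA KD), which overlap. The nearest TERRA KD peak of H3K9me3 was 1629 bp away.

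Tcfl5, which encodes a basic helix-loop-helix transcription factor of the testis, had the most isolated site. At chr2:180642636-180644792 it had a −log10 p of 6.12 (61 tags) and 2.46 (5 tags), and it was the only promoter site with ATAC peaks in both TERRA KD lists, at 4.34-fold and 6.15-fold, and in neither scramble KD list. An ATRX peak of 6 tags was called there in TERRA KD replicate 1 and a G4 peak in scramble KD replicate 2. At Nos1, the gene of neuronal nitric oxide synthase, the site at chr5:117866129-117869010 reached 4.99 and 3.08, was 3.64% masked and lacked ATRX and ATAC peaks, with G4 peaks in 3 lists. Ifrd2 was the only gene with 2 lost sites of which 1 was at its start, at chr9:107588085-107591891 (5.9 and 2.41) and chr9:107591949-107592861, and these were the only shared sites over it. The first was open only in the replicate 2 ATAC lists, at 12.7-fold (scramble KD) and 13.4-fold (TERRA KD).

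The remaining protein-coding promoters had a −log10 p between 2.26 and 3.46 in replicate 1. They belonged to the zinc finger gene Zfp978, the lectin gene Clec4a3, the odorant receptor gene Olfr648, the translation factor gene Eif5a2, the beta-defensin gene Defb35, Dcaf8l, the sperm cation channel gene Catsperg2, Ttyh3 and Lrrc66. Accessibility in all 4 lists was seen at Zfp978, Eif5a2 and Catsperg2. At Catsperg2 (chr7:29725127-29726554) both TERRA KD values, 8.63-fold and 9.83-fold, were above both scramble KD values, 4.69-fold and 5.76-fold, while at Eif5a2 (chr3:28779578-28781286) the order was the opposite, 7.53-fold and 7.13-fold against 7.88-fold and 8.79-fold. The 6 other genes were 4930571O06Rik, Mir5620, Sycp1-ps1, Gm4961, 1700112D23Rik and 1700017L05Rik.

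Gene bodies with a lost site numbered 241, among 2387 with a shared site. None had 3 lost sites, and 11 had 2, namely Abcg2, Atp6v0a4, Cdh13, D6Ertd527e, Dera, Fto, Ifrd2, Lmo3, Ntrk2, Ube2e2 and Zfhx3. In D6Ertd527e, Dera, Ifrd2 and Zfhx3 the 2 lost sites were all the shared sites of the gene, whereas Cdh13, which encodes the adhesion protein T-cadherin, had 15 and the BDNF receptor gene Ntrk2 had 3.

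Zinc finger genes held 152 shared sites, of which 5 (3.29%) were lost, in Zfp53, Zfp804b, Zfp978, Zfp663 and Zfp808, while 104 were kept. The share among all shared sites was 5.66%. The strongest was in an intron of Zfp53 at chr17:21495553-21498335, with a −log10 p of 5.25 and 3.75. Imprinted genes held 9 shared sites and 2 lost ones (22.2%), an intronic site of Snrpn at chr7:60050095-60051072 (2.64 and 2.71) and a site over Kcnq1 and its antisense RNA Kcnq1ot1 at chr7:143249294-143251327 (2.04 and 4.9). Olfactory and vomeronasal receptor genes held 49 shared sites and 1 lost one (2.04%), in Vmn2r126, and 36 kept ones. No site was lost of 11 in germline genes, 8 in protocadherin genes, 6 in genes of H3K9 methylation and ATRX and 1 in a gene of the two-cell stage, and genes of pluripotency and the Hox genes held no shared site. With so few sites per group, these counts were not tested.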

How the data were processed

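H3K9me3, ATRX and G4 ChIP-seq and ATAC-seq peak lists of 16 libraries (2 replicates, 2 conditions) were read as deposited. Per the submitters' processing notes, reads were trimmed with Trim Galore (version 0.5.0), aligned to mm10 with Bowtie2 (version 2.3.4.1) and handled with SAMtools (version 1.9). Per the file headers, the authors called peaks in each library with MACS (1.4.3 for H3K9me3 and ATRX, 1.4.2 for G4, both against input, and 2.2.7.1 for ATAC-seq) at a p of 0.01. For the ChIP-seq lists, the authors gave the count of tags per peak, not scaled to depth, a score of −10 log10 p, which was divided by 10 here, the fold enrichment over input and an FDR in percent, which was not used. For ATAC-seq, the deposited lists gave the −log10 p, the pileup signal and the fold enrichment. Scores and folds therefore depend on depth and on the input.

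Python (version 3.11.15) with numpy, pandas, scipy and pysam was used. Peaks overlapped if they shared at least 1 bp. Groups came from the titles and knockdown labels, while the source name field names TERRA KD for every sample, scramble KD included. Positions were compared with RefSeq on GRCm38, with curated transcripts of 26182 genes, and repeat content was the share of bases masked in the reference. The 2 lost sites on unplaced scaffolds had no annotation and were left out there. Libraries were the unit of every test: TERRA KD and scramble KD were compared by an exact permutation test and lost with kept sites by an exact sign-flip test over 4 libraries, where the smallest two-sided p-values are 0.33 and 0.13, so that none could pass 0.05. Named sites were the 10 best by the worse of their ranks in both scramble KD lists, sites within 1 kb of a start site, sites in listed gene groups and sites with a stated pattern of ATRX, G4 or ATAC peaks. The 4 motif sequences and the genes with 2 lost sites were chosen after their values were seen. The sites and gene lists were chosen with earlier results of these data known. The overlap rule was tested on simulated peak lists, and the exact tests were compared with those of scipy on simulated numbers. Alternatives covered score, overlap, length, chromosome and replicate choices.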

Additional observations from a re-analysis of the deposited data

How the results depend on the processing

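The number of lost sites was 908 of 16045 (5.66%), and each count below stands beside the number of sites examined. It was 141 of 3434 (4.11%) with all H3K9me3 lists limited to a −log10 p of at least 5. With this limit on the scramble KD lists alone, it was 2 of 3434. Where a peak had to cover at least 50% of the site, it was 121 of 661 (18.3%), a lower count but a higher share. With scramble KD replicate 2 peaks as sites it was 1995 of 34435 (5.79%), a higher count at a similar share. It was 2100 of 16045 (13.1%) without TERRA KD replicate 2 and 3216 of 16045 without TERRA KD replicate 1. It was 3762 of 26414 (14.2%) without scramble KD replicate 2 and 33537 of 76213 (44.0%) without scramble KD replicate 1. It was 751 (4.68%) when a TERRA KD peak within 1 kb counted as present and 905 (5.69%) on autosomes and X. The share within 1 kb of a start site was 0.807% with replicate 2 peaks as sites. Lost minus kept turned in sign in the central 1 kb (G4 2.66, ATAC 2.37 percentage points) and in the narrowest sites (1.28 and 1.84). The TERRA KD minus scramble KD difference at lost less that at kept sites also turned, for G4 to 4.17 with peaks of a −log10 p of at least 5, 0.252 in the central 1 kb and 0.87 in the narrowest sites, and for ATAC to 0.299 in the central 1 kb and 0.542 at sites with a −log10 p under 3, the last chosen after seeing the data; the cause was not tested. Leaving out a replicate, the G4 difference at lost sites was −17.4 (without replicate 1) and 6.83 (without replicate 2), and that relative to kept sites 5.46 and −8.26. For ATRX the means of all 3 results kept their direction under every alternative tried, with lost minus kept from −22.4 to −4.5 points, but in replicate 2 alone the difference relative to kept sites turned to 0.477 in the narrowest sites and 1.12 at sites with a −log10 p under 3, and the size of the TERRA KD minus scramble KD differences depended on replicate 1 (2.53 and −4.68 points without it). The labels do not say that a replicate number marks a shared batch, but in the names of the lists same-numbered libraries of an assay carry the same lane name, and replicate 1 had the smaller H3K9me3 and ATRX inputs in both conditions (correlation of deviations in peak density over 1 Mb bins H3K9me3 0.294, ATRX 0.0487, G4 0.564, ATAC 0.1). Fitted with the replicate block, the ATRX, G4 and ATAC differences at lost sites were 4.74, −5.29 and 2.59 points and those relative to kept sites −17.7, −1.4 and −1.76, with p of 0.5, 1.0 and 0.5 in the exact sign-flip test over 2 pairs, where 0.5 is the smallest possible. With lists of called peaks and no read coverage, a lost call cannot be told apart from a signal just under the threshold.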
